A study of Mus musculus with 27 samples.

Results

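The 10 genes of the Notch pathway described here were followed through RNA-seq libraries of mouse intestinal organoids, of an epithelial cell line and of fibroblasts. They were the receptors Notch1, Notch2 and Notch3, the ligands Dll1, Dll4, Jag1 and Jag2, the target genes Hes1 and Hey1, and Lfng, which encodes a sugar transferase that acts on the receptors. They were chosen by name among the 22524 genes counted in each of the 27 libraries, and all 10 were found. Organoids, three-dimensional cultures grown from intestinal crypts in Matrigel and Intesticult medium, came from the jejunum of 9 C57BL/6J mice, which were young adult males and littermates within their facility. There were 3 mice per facility, of which SR and SE were specific pathogen free (SPF) and GF was germ-free, so that a facility stood for a single litter. Each of the 9 organoid cultures gave 1 library labelled untreated and 1 labelled TNF (5 ng/mL for 8 h). m-ICc12 cells gave 3 libraries of each label, numbered M1 to M3, which share a number but are not taken as pairs. The study describes m-ICc12 as an immortalised line of mouse small intestinal epithelium, a description that the markers below did not bear out. The line was derived from mice with a viral large T antigen transgene under the L-type pyruvate kinase promoter, and its samples are all of 1 line. Mouse embryonic fibroblasts (MEFs) gave 3 untreated libraries. MEFs and m-ICc12 cells were grown in media with fetal calf serum. Nothing in the sources used here says that the 3 m-ICc12 or the 3 MEF samples came from separate isolates, so p-values in which they enter measure the spread between these samples, which may be technical.

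Notch receptors are activated by ligands on a neighbouring cell. Ligand binding leads to cleavage of the receptor, and its intracellular domain then enters the nucleus, binds the DNA-binding protein RBPJ and switches on genes such as Hes1. In the intestinal crypt, Notch signalling keeps stem and progenitor cells undifferentiated and directs progenitors to the absorptive fate, while cells with low Notch activity express Atoh1 and become secretory cells (Paneth, goblet, enteroendocrine and tuft cells) that carry the Delta-like ligands.

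Total counts on genes lay between 6071103 in the m-ICc12 library M1 labelled TNF and 43843615, with a median of 30339856 over the 27 libraries. Levels are given as CPM, the counts of a gene relative to the library total, scaled by the TMM method of edgeR, and a floor of 3 counts was used for detection, which covers counting error only. The name codes of the deposited data gave the opposite treatment to the sample labels in every organoid and m-ICc12 library. The labels were followed here, and the libraries are called "labelled TNF" and "labelled untreated". Nfkbia, a target of NF-kB that is normally induced by TNF, lay between 149 and 227 CPM in the 9 organoid libraries labelled untreated and between 23.7 and 36.6 CPM in those labelled TNF. It was 113, 68.6 and 77.4 CPM in the m-ICc12 libraries labelled untreated and 14.5, 21.5 and 21.9 CPM in those labelled TNF. Tnfaip3, Relb and Nfkb2, further targets of NF-kB, were also lower in the library labelled TNF in 9 of 9 organoid cultures, and lower in all 3 m-ICc12 libraries labelled TNF than in any of the 3 labelled untreated. The study lists these genes among the known TNF targets that TNF altered in its organoids, and reports Nfkb2 protein as raised by TNF. Every direction by treatment label below carries this disagreement, and so do the comparisons between cells and facilities: if the labels are exchanged, they set organoids and m-ICc12 cells treated with TNF against untreated MEFs, or treated organoids against each other. The comparisons between the kinds of cells used the libraries labelled untreated, and values from the libraries labelled TNF are given where they changed a call.

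The identity of the cells was checked with marker lists. The 6 epithelial markers summed to between 5303 and 6351 CPM in the organoid libraries labelled untreated, to between 1594 and 2150 CPM in those of m-ICc12 cells and to 8.50 to 13.3 CPM in the MEF libraries. In m-ICc12 cells, Cdh1 (E-cadherin) was at 1.49 ± 0.484 CPM (SD, n = 3) and Epcam at 4.33 ± 2.35 CPM, against 1017 ± 66.3 and 980 ± 84.2 CPM (SD, n = 9) in organoids, and Cldn7 and Vil1 were also lower than in organoids, at 1.22 ± 0.932 against 542 ± 76.8 CPM and 32.8 ± 13.5 against 756 ± 143 CPM. Krt8 and Krt18 carried nearly all of the sum in m-ICc12 cells, with 1373 ± 222 and 524 ± 109 CPM, against 2020 ± 191 and 560 ± 120 CPM in organoids. Cdh16 (kidney-specific cadherin) and Pax8, a transcription factor of kidney and thyroid epithelium, were singled out after their values were seen. Cdh16 was 682 ± 98.5 CPM in m-ICc12 cells, 0.622 ± 0.471 CPM in organoids and 0.495 ± 0.0599 CPM in MEFs, and Pax8 was 273 ± 15.2, 3.96 ± 1.60 and 0.219 ± 0.0715 CPM in the same order. Markers of intestinal stem, Paneth, goblet, enteroendocrine and tuft cells and of enterocytes each summed to no more than 7.32 CPM in the m-ICc12 libraries labelled untreated. The cells are therefore called by their label, m-ICc12, and no intestinal cell type is given to them. In the organoids, the 8 fibroblast markers summed to 14.1 to 32.4 CPM, the 5 endothelial markers to 0 to 0.604 CPM and the 5 leukocyte markers to 0.230 to 5.88 CPM. In m-ICc12 cells the fibroblast list summed to between 1834 and 2983 CPM, which was carried by Vim (2491 ± 593 CPM, n = 3), with Col3a1, Pdgfrb, Thy1 and Twist1 at or under 3 counts in all 3 libraries. Their leukocyte list summed to 74.4 to 124 CPM, with Cd3e and Cd79a at or under 3 counts in all 3 libraries, and their endothelial list to 4.08 to 7.91 CPM. Notch1, Notch3, Dll1 and Dll4 overlap antisense genes that were not counted, and as the use of strand in counting is not given in the sources used here, their reads cannot be told apart. As these are bulk libraries, fewer cells of a type and less RNA per cell cannot be told apart.

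Organoids, m-ICc12 cells and MEFs each had their own combination of Notch receptors and ligands. Organoids carried mainly Notch1, with Dll1 and Jag1 as the leading ligands and less Dll4 and Jag2, m-ICc12 cells mainly Notch2 and Jag1, and MEFs mainly Notch2, with little ligand of any kind. Hes1 and Lfng were highest in organoids, and Hey1 was found in MEFs but was at 0 counts in 7 of the 9 organoid libraries labelled untreated.

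**Figure D1:**
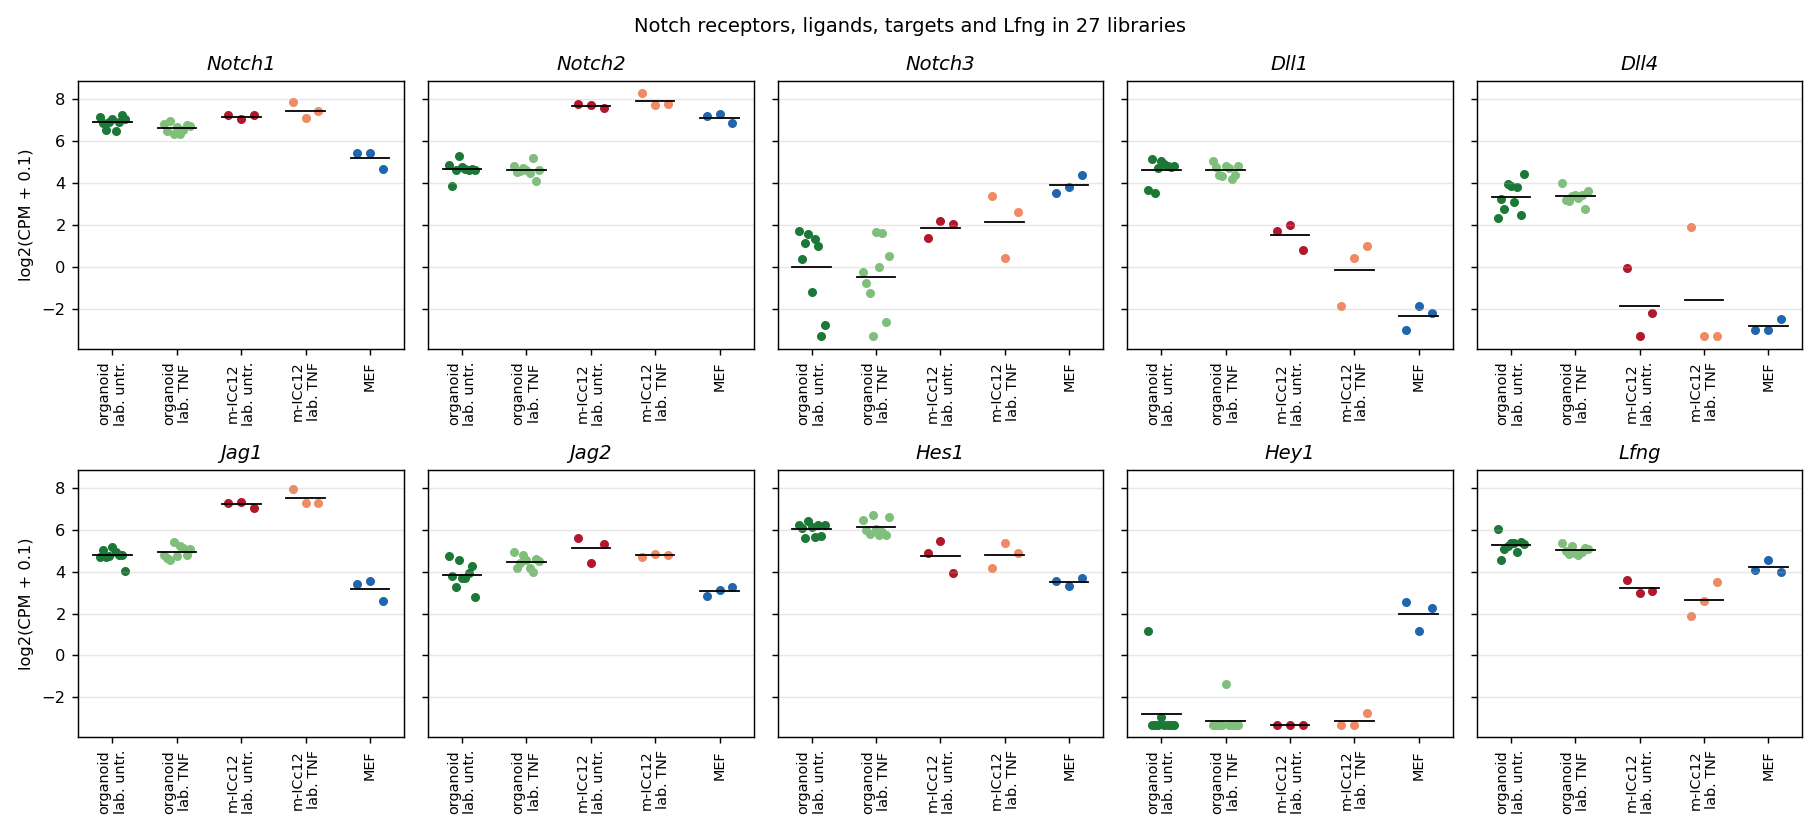
Levels of the 10 genes, as log2 of CPM plus 0.1 (y axis), in each of the 27 libraries (points), with the mean of each group as a line. Dll1 and Dll4 are high in all 18 organoid libraries, Notch2 and Jag1 are highest in m-ICc12 cells, and the mean of Hey1 is highest in MEFs, where 1 organoid library (2.15 CPM) lies above the lowest MEF library (2.12 CPM).

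In edgeR's quasi-likelihood test between the organoid and the m-ICc12 libraries, 7 of the 9 genes that could be tested had an adjusted p under 0.05, a share to be read against 60.9% of all 12962 genes tested. Of the 7, Dll1, Dll4, Hes1 and Lfng were higher in organoids (31.6% of all genes were) and Notch2, Jag1 and Jag2 were lower (29.3%). Between organoids and MEFs, all 10 genes were called, against 67.2% of 13144 genes. Notch1, Dll1, Dll4, Jag1, Jag2, Hes1 and Lfng were higher in organoids (34.6% of all genes) and Notch2, Notch3 and Hey1 lower (32.6%). Between m-ICc12 cells and MEFs, 9 of 9 genes tested were called, against 59.3% of 12830 genes. Notch1, Notch2, Dll1, Jag1, Jag2 and Hes1 were higher in m-ICc12 cells (28.1% of all genes) and Notch3, Hey1 and Lfng lower (31.2%). The median log2 fold change over the genes tested was −0.23 for organoids against m-ICc12 cells, 1.33 for organoids against MEFs and 1.32 for m-ICc12 cells against MEFs, where the medians of all genes were 0.03, 0.03 and −0.06. These 3 comparisons share libraries and are not independent of each other. Most genes differed between these cells, and nothing particular to the Notch genes is read from the counts.

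**Figure D2:**
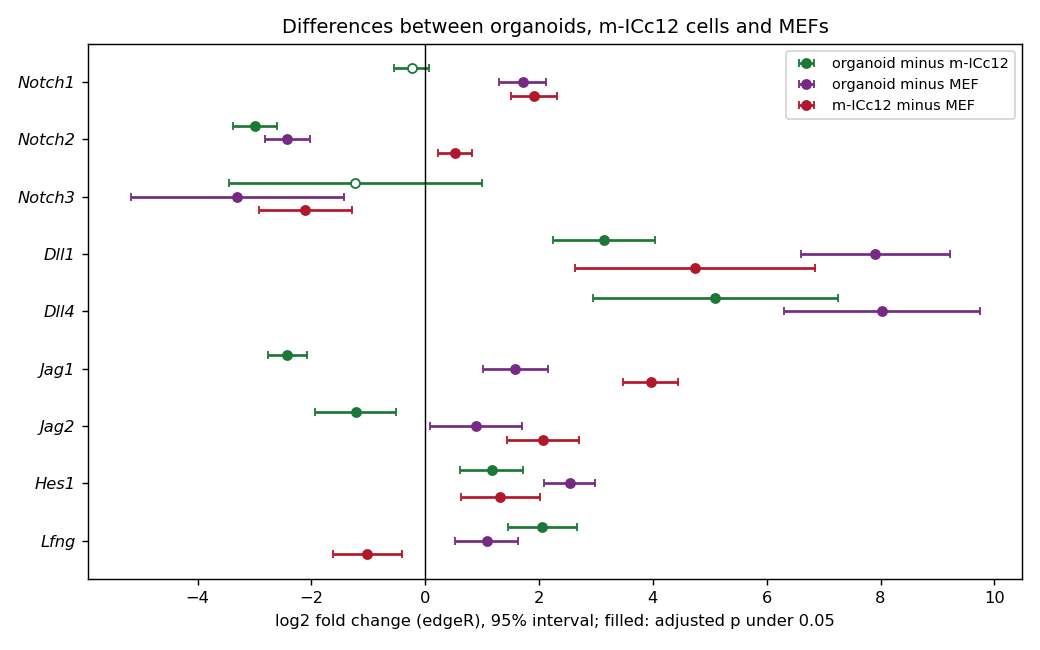
Log2 fold changes of 9 genes (x axis) with their 95% interval from edgeR, for organoids against m-ICc12 cells, organoids against MEFs and m-ICc12 cells against MEFs, in libraries labelled untreated. Filled points had an adjusted p under 0.05, and Hey1 is left out because the m-ICc12 libraries held 0 counts of it.

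Notch1 (ENSMUSG00000026923, GRCm38 chr2:26457903-26516663, minus strand) is the main receptor of the intestinal crypt together with Notch2. In the organoid libraries labelled untreated it lay between 89.4 and 152 CPM, with a median of 118 CPM. The m-ICc12 libraries had 148, 131 and 149 CPM, within the range of the organoids, and the MEF libraries 42.4, 42.5 and 25.6 CPM, below every organoid and m-ICc12 library. The log2 fold change was 1.72 (SE 0.195, adjusted p = 9.7e-07, edgeR) between organoids and MEFs and 1.91 (SE 0.188, adjusted p = 1.9e-06) between m-ICc12 cells and MEFs. Organoids and m-ICc12 cells differed by −0.23 (95% interval −0.54 to 0.07, adjusted p = 0.17) in the libraries labelled untreated, but by −0.85 with adjusted p = 7.7e-05 in those labelled TNF. The m-ICc12 libraries labelled TNF had 228, 137 and 169 CPM, the highest of them in M1, the library with the lowest total count.

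Notch2 (ENSMUSG00000027878, chr3:98013527-98150361, plus strand), the other receptor of the crypt, was lower in organoids than in both other kinds of cells. It lay between 14.1 and 38.9 CPM (median 25.2 CPM) in organoids, at 217, 213 and 187 CPM in m-ICc12 cells and at 147, 153 and 116 CPM in MEFs, with no overlap between any pair of these groups. It was lower in organoids than in m-ICc12 cells by 2.99 on the log2 scale (log2 fold change −2.99, SE 0.179, adjusted p = 3.7e-10) and lower than in MEFs with a log2 fold change of −2.43 (SE 0.188, adjusted p = 9.0e-09). The difference between m-ICc12 cells and MEFs was smaller, at 0.53 (SE 0.138, adjusted p = 0.0054).

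Notch3 (ENSMUSG00000038146, chr17:32120820-32166852, minus strand), a receptor best known from vascular smooth muscle and other mesenchymal cells, was low in all 3 kinds of cells. It was highest in MEFs, at 11.3, 14 and 20.9 CPM, and was 2.46, 4.49 and 4.05 CPM in m-ICc12 cells. Organoid libraries labelled untreated lay between 0 and 3.21 CPM with a median of 1.87 CPM, and the counts behind these values ran from 0 to 85 in a library. The log2 fold change against MEFs was −3.30 (SE 0.884, adjusted p = 0.0036) for organoids and −2.11 (SE 0.374, adjusted p = 0.00035) for m-ICc12 cells, the latter with adjusted p = 0.074 in the libraries labelled TNF and 0.19 when all 27 libraries entered 1 fit. Organoids and m-ICc12 cells were not distinguished (−1.23, 95% interval −3.46 to 0.99, adjusted p = 0.32), whereas in the libraries labelled TNF the difference was −2.42 with adjusted p = 0.034. The m-ICc12 libraries labelled TNF had 10.4, 1.25 and 6.10 CPM. The highest value was 60 counts in M1, the library with the lowest total count.

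To compare the receptors with each other, levels were divided by the length of all exons of the gene. Notch1 made up 76.5 ± 5.63% of the summed CPM per kb of the 3 receptors in organoids (SD, n = 9), 34.0 ± 2.88% in m-ICc12 cells and 14.7 ± 2.53% in MEFs (n = 3 each). Notch2 made up 21.7 ± 4.71%, 64.5 ± 2.89% and 74.0 ± 2.46%, and Notch3 1.80 ± 1.37%, 1.55 ± 0.490% and 11.3 ± 4.99% in the same order. The lowest Notch1 share of any organoid library labelled untreated was 67.6% and the highest of any m-ICc12 library 36.9%. The receptor sum itself was 11.1 ± 1.62 CPM per kb in organoids, 29.5 ± 1.30 in m-ICc12 cells and 17.4 ± 1.95 in MEFs. With the longest coding transcript as the length, a choice added after the data were seen, the Notch1 shares became 82.6, 42.9 and 20.2% and those of Notch2 16.1, 55.8 and 69.4%, with the same order of cells for each.

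**Figure D3:**
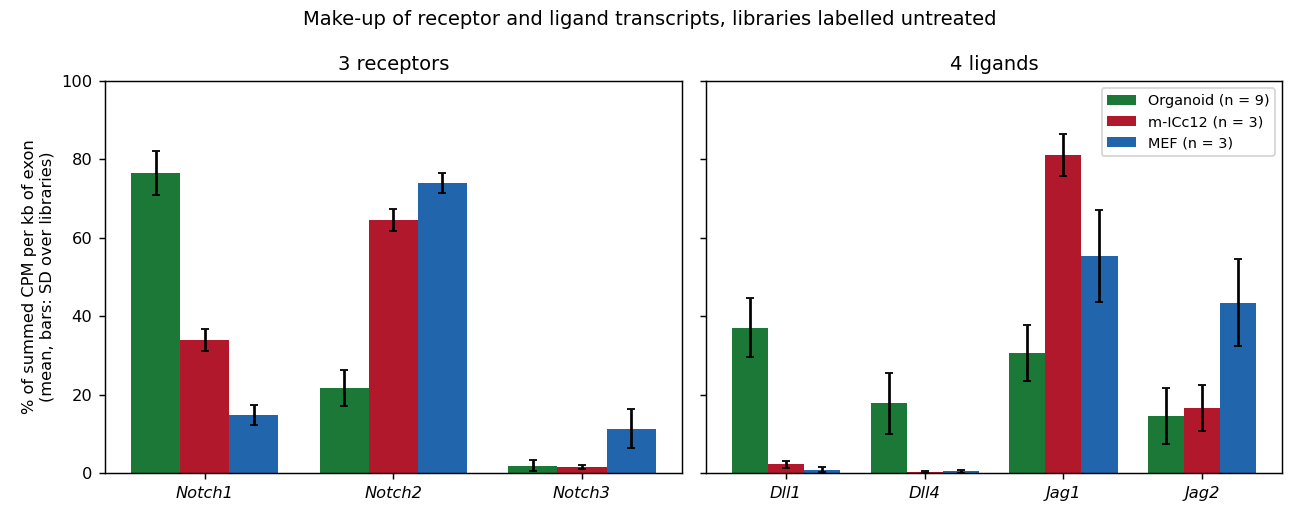
Share of each gene in the summed CPM per kb of exon (y axis, percent) of the 3 receptors and of the 4 ligands, in libraries labelled untreated, with bars for the mean and error bars for the SD over libraries. Notch1 holds 76.5% of the receptor sum in organoids and Jag1 81.1% of the ligand sum in m-ICc12 cells.

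The Delta-like ligands Dll1 and Dll4, which in the crypt are carried by secretory cells and their progenitors, were found mainly in organoids. The RefSeq table of promoters (build GRCm38.p6) held 9 promoters of 8 of the 10 genes. As Dll1 and Dll4 moved together between the cells, the 250 bases before their annotated starts are shown, for Dll1 chr17:15376933-15377182 on the minus strand and for Dll4 chr2:119325534-119325783 on the plus strand, together with those of Lfng, chr5:140607091-140607340 on the plus strand. Each reads 5′ to 3′ on the gene's strand and ends at the base before the start. Capitals mark the core of the RBPJ motif, TGGGAA on either strand.
Dll1: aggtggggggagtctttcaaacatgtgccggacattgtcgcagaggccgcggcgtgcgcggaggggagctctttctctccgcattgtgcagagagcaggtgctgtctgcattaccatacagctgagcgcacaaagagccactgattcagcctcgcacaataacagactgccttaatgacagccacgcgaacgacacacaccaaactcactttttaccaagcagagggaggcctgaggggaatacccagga
Dll4: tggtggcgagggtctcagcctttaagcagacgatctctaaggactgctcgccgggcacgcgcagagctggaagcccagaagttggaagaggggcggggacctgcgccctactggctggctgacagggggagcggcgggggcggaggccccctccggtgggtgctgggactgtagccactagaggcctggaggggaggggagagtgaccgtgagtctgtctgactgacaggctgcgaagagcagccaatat
Lfng: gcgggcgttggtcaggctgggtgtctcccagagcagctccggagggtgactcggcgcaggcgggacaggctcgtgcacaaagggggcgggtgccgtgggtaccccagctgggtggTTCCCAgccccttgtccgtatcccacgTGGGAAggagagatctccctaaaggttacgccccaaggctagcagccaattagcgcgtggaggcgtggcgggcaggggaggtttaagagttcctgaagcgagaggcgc
Lfng held 2 such matches, which began 135 and 108 bases before the start, the first of them on the opposite strand. The other 8 promoters, including a second start of Dll1, held none, and 21.6% of all 32851 promoters of this length in the table held at least 1. The N-box CACNAG, a motif of the HES family, had a match on either strand in the promoters of Notch1, Notch2, Notch3, Dll4 and Lfng, and in 36.7% of all promoters. These are matches of letters in a window and say nothing on binding.

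Dll1 (ENSMUSG00000014773, chr17:15367354-15376872, minus strand) lay between 11.4 and 34.9 CPM in the organoid libraries labelled untreated, with a median of 27.8 CPM. It was 3.15, 3.93 and 1.64 CPM in m-ICc12 cells. In MEFs it was 0.0237, 0.175 and 0.114 CPM, which are 1, 7 and 3 counts. The groups did not overlap. The 2 lowest organoid values, 11.4 and 12.5 CPM, both came from facility SR, and so did the highest, 34.9 CPM. The log2 fold change of organoids was 3.14 (SE 0.424, adjusted p = 7.3e-06) against m-ICc12 cells and 7.91 (SE 0.616, adjusted p = 9.4e-09) against MEFs, and that of m-ICc12 cells against MEFs was 4.73 (SE 0.973, adjusted p = 0.0011).

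Dll4 (ENSMUSG00000027314, chr2:119325784-119335962, plus strand) lay between 4.90 and 21.2 CPM in organoids, with a median of 9.43 CPM. The m-ICc12 libraries had 0.868, 0 and 0.119 CPM, which are 30, 0 and 5 counts, and the MEF libraries 1, 1 and 2 counts. Every organoid library was above every other library labelled untreated. Organoids were higher than m-ICc12 cells with a log2 fold change of 5.10 (SE 1.02, adjusted p = 0.00039), and of 7.49 without sample M1, which held 30 of the 35 counts. Against MEFs the ratio of summed counts per library size was 301 (95% exact counting interval 118 to 1107), and edgeR's log2 fold change 8.03 (SE 0.810, adjusted p = 2.3e-07).

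Jag1 (ENSMUSG00000027276, chr2:137081456-137116644, minus strand) encodes a ligand of the Jagged family. It was highest in m-ICc12 cells, with 156, 159 and 132 CPM. Organoids lay between 16.4 and 35.7 CPM (median 27.4 CPM) and MEFs at 10.4, 11.5 and 5.91 CPM, and the 3 groups did not overlap. The log2 fold change of organoids was −2.42 (SE 0.161, adjusted p = 1.3e-09) against m-ICc12 cells and 1.58 (SE 0.268, adjusted p = 7.3e-05) against MEFs, and that of m-ICc12 cells against MEFs was 3.96 (SE 0.226, adjusted p = 9.1e-09). Cdh16 and Pax8, given above, were high in the same 3 libraries, and their part in the level of Jag1 was not tested.

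Jag2 (ENSMUSG00000002799, chr12:112907819-112929776, minus strand) followed the same order with smaller distances. It was 48.3, 21.4 and 39.6 CPM in m-ICc12 cells, lay between 6.75 and 26.2 CPM (median 13.5 CPM) in organoids and was 7.14, 8.50 and 9.53 CPM in MEFs. The lowest m-ICc12 value lay within the range of the organoids, and the MEF values lay within it as well. Organoids were lower than m-ICc12 cells (log2 fold change −1.22, SE 0.338, adjusted p = 0.0050), which became −0.96 with adjusted p = 0.053 without sample M1 and −0.30 with adjusted p = 0.20 in the libraries labelled TNF. They were higher than MEFs by 0.90 (SE 0.381, adjusted p = 0.048), a call that was lost when any of 10 of the 12 libraries was left out, with adjusted p between 0.053 and 0.15. m-ICc12 cells and MEFs did not overlap and differed by 2.08 (SE 0.293, adjusted p = 5.2e-05).

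Per kb of exon, Dll1 made up 37.1 ± 7.59% of the 4 ligands in organoids, Jag1 30.6 ± 7.03%, Dll4 17.8 ± 7.81% and Jag2 14.5 ± 7.06% (SD, n = 9). The SDs of Dll1 and Jag1 overlapped, and so did those of Dll4 and Jag2, whose order turned with the longest coding transcript as the length (16.2 and 17.3%). In m-ICc12 cells Jag1 made up 81.1 ± 5.39% and Jag2 16.5 ± 5.82%, against 2.16 ± 0.811% for Dll1 and 0.252 ± 0.348% for Dll4 (n = 3). In MEFs Jag1 made up 55.3 ± 11.8% and Jag2 43.5 ± 11.2%, whose SDs overlapped and whose order also turned with that length (48.8 and 49.95%). The ligand sum was 15.9 ± 2.94 CPM per kb in organoids, 31.6 ± 2.96 in m-ICc12 cells and 2.83 ± 0.409 in MEFs, so that the receptor sum exceeded the ligand sum in MEFs.

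Hes1 (ENSMUSG00000022528, chr16:30064384-30067796, plus strand), a repressor that acts against Atoh1 and is the best known Notch target of the crypt, was the most abundant of the 10 genes per kb in organoids, at 32.5 ± 6.43 CPM per kb (SD, n = 9). Lfng followed at 15.6 ± 4.59, Notch1 at 8.49 ± 1.47 and Dll1 at 6.05 ± 1.95 CPM per kb. In CPM, Hes1 lay between 48.7 and 84.6 in organoids, with a median of 70.5. It was 29.7, 43.3 and 15.3 CPM in m-ICc12 cells and 11.6, 9.90 and 12.8 CPM in MEFs, and the 3 groups did not overlap. The log2 fold change was 1.17 (SE 0.263, adjusted p = 0.0011) between organoids and m-ICc12 cells, 2.54 (SE 0.212, adjusted p = 2.3e-08) between organoids and MEFs and 1.32 (SE 0.322, adjusted p = 0.0035) between m-ICc12 cells and MEFs.

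In m-ICc12 cells the order per kb was led by Jag1 (25.6 ± 2.54 CPM per kb), Notch2 (19.1 ± 1.52), Hes1 (14.5 ± 6.87) and Notch1 (10.0 ± 0.708), and in MEFs by Notch2 (12.9 ± 1.82), Lfng (7.41 ± 1.74) and Hes1 (5.61 ± 0.710). The SDs of Notch2 and Hes1 and of Hes1 and Notch1 overlapped in m-ICc12 cells, as did those of Lfng and Hes1 in MEFs.

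Hey1 (ENSMUSG00000040289, chr3:8663359-8667256, minus strand), a target known from blood vessels, was 5.84, 2.12 and 4.73 CPM in MEFs. It was at 0 counts in all 3 m-ICc12 libraries labelled untreated and in 7 of 9 organoid libraries, at 1 count in culture Z912 and at 57 counts (2.15 CPM) in culture Z908 of facility SR. MEFs were at least 48.8-fold higher than m-ICc12 cells, with the floor of 3 counts in the library of the lowest total (adjusted p = 5.1e-05, edgeR). Organoids were lower than MEFs with a log2 fold change of −4.09 (SE 1.59, adjusted p = 0.032), of −8.89 with adjusted p = 1.2e-06 without culture Z908 and of −4.19 with adjusted p = 0.21 in DESeq2. The same gene was at 0 counts in the library of Z908 labelled TNF.

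Lfng (ENSMUSG00000029570, chr5:140607320-140615545, plus strand) encodes Lunatic fringe, which extends the O-fucose on Notch receptors and thereby favours Delta-like over Jagged ligands. It lay between 23.3 and 65.1 CPM in organoids (median 40.1 CPM), at 12.1, 7.90 and 8.34 CPM in m-ICc12 cells and at 16.6, 23.6 and 15.5 CPM in MEFs. The highest MEF library exceeded the lowest organoid library slightly, and both were above all m-ICc12 libraries. The log2 fold change of organoids was 2.06 (SE 0.283, adjusted p = 9.1e-06) against m-ICc12 cells and 1.08 (SE 0.261, adjusted p = 0.0017) against MEFs. m-ICc12 cells were lower than MEFs (−1.02, SE 0.282, adjusted p = 0.0076), which became −0.75 with adjusted p = 0.076 without the MEF sample R2. The promoter of this gene is the one shown above with 2 RBPJ cores.

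The other genes of the pathway were described with a list of 51 genes, of which 22 were higher and 10 lower in organoids than in m-ICc12 cells among 43 tested, and 22 higher and 13 lower than in MEFs among 44 tested. Between m-ICc12 cells and MEFs, 9 were higher and 11 lower among 36. Over all genes tested, 60.9, 67.2 and 59.3% were called in these comparisons, and nothing particular to the list or to its parts is read from the counts. The median log2 fold changes were 0.40, 0.41 and −0.07, and were unchanged with the genes at or under 3 counts in a whole group set to their bounds. By role, all 4 glycosyltransferases tested were higher in organoids than in m-ICc12 cells, against 2 higher and 1 lower of 4 in the comparison with MEFs. Of 10 genes of the receptor-cleaving proteases, 5 were higher and 3 lower against m-ICc12 cells, and 5 higher and 2 lower against MEFs. Of 11 genes of endocytosis and ubiquitination in the pathway, 4 were higher and 4 lower in both. Of 7 genes of the nuclear complex, none was higher and 2 were lower against m-ICc12 cells, and 1 was higher and 4 lower against MEFs. The list held 5 genes of intestinal cell fate. Atoh1, Gfi1, Neurog3 and Spdef, transcription factors of secretory cells, and Olfm4, a stem cell gene that depends on Notch activity, were higher in organoids than in m-ICc12 cells and than in MEFs, 5 of 5 in both comparisons. Atoh1 was 6.86 ± 2.22 CPM in organoids (n = 9) and 0 counts in all 3 m-ICc12 libraries, at least 79.1-fold lower, and 3 counts summed over the 3 MEF libraries (ratio 252, 95% exact counting interval 86.2 to 1224). Gfi1 was 2.72 ± 1.5 CPM in organoids, 0 counts in m-ICc12 cells (at least 31.4-fold lower) and 3 counts in a single MEF library. Neurog3 was 15.4 ± 4.83 CPM in organoids, 1 count in m-ICc12 cells and 0 counts in MEFs (at least 134-fold lower). Spdef was 14.9 ± 4.32 CPM in organoids and 1 count summed over the 3 m-ICc12 libraries, as over the 3 MEF libraries. Olfm4 was 890 ± 407 CPM in organoids, 1.64 ± 1.42 CPM in m-ICc12 cells and 0.836 ± 0.434 CPM in MEFs.

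Hes6, a further member of the Hes family, was 108 ± 10.1 CPM in organoids, 28.6 ± 3.68 CPM in m-ICc12 cells and 12.1 ± 1.12 CPM in MEFs (log2 fold change of organoids 1.92, SE 0.133, adjusted p = 2.4e-09, and 3.16, SE 0.138, adjusted p = 6.0e-12). Nrarp, a feedback inhibitor that Notch induces and that was chosen after its values were seen, was 29.5 ± 5.35, 3.69 ± 0.944 and 7.41 ± 2.52 CPM, again highest in organoids (log2 fold change 3.00, SE 0.272, adjusted p = 6.5e-08, and 2.00, SE 0.266, adjusted p = 5.8e-06). Among the enzymes that put sugars on Notch, Poglut1, the O-glucosyltransferase, was nearly absent from m-ICc12 cells, with 4, 3 and 3 counts (0.0841 ± 0.0276 CPM), against 21.4 ± 2.81 CPM in organoids and 74.8 ± 5.60 CPM in MEFs. It was higher in organoids than in m-ICc12 cells with a log2 fold change of 7.95 (SE 0.402, adjusted p = 4.4e-11) and lower than in MEFs with one of −1.80 (SE 0.144, adjusted p = 1.3e-08), and m-ICc12 cells and MEFs differed by −9.82 (SE 0.282, adjusted p = 1.8e-11). Pofut1, the O-fucosyltransferase whose product Lfng extends, was higher in organoids (88.5 ± 13.5 CPM) than in m-ICc12 cells (43.6 ± 2.76 CPM, adjusted p = 1.9e-05) and MEFs (50.5 ± 8.09 CPM, adjusted p = 0.00024). Rfng was 41.8 ± 8.83 CPM in organoids and 25.7 ± 3.21 CPM in m-ICc12 cells (adjusted p = 0.0068), and Mfng was 0.907 ± 0.836 CPM in organoids and at 0 counts in m-ICc12 cells and MEFs.

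Rbpj itself was highest in MEFs, at 158 ± 4.87 CPM, against 39.7 ± 7.74 CPM in organoids (log2 fold change −1.99, SE 0.151, adjusted p = 6.6e-09) and 55.4 ± 5.04 CPM in m-ICc12 cells, which also were below MEFs (−1.56, SE 0.138, adjusted p = 7.3e-07). Its coactivator Maml1 was 30.7 ± 1.49 CPM in m-ICc12 cells and 79.6 ± 6.56 CPM in MEFs (−1.42, SE 0.151, adjusted p = 4.0e-06). Dtx4, a ubiquitin ligase of the pathway, was 131 ± 18.1 CPM in organoids and 18.2 ± 2.56 CPM in MEFs (2.86, SE 0.159, adjusted p = 1.3e-10), and 106 ± 5.46 CPM in m-ICc12 cells (2.51, SE 0.166, adjusted p = 3.9e-08, against MEFs). Neurl1b, which acts on ligands, was 65.2 ± 7.28 CPM in m-ICc12 cells and 0.371 ± 0.477 CPM in MEFs (7.64, SE 0.584, adjusted p = 1.6e-07). The non-canonical ligand Dlk2 was 0.127 ± 0.165 CPM in organoids, 5.61 ± 3.66 CPM in m-ICc12 cells and 22.6 ± 4.51 CPM in MEFs, and was called in all 3 comparisons. Dner was 1.33 ± 1.55 CPM in organoids and at or under 3 counts in every m-ICc12 and MEF library, and Notch4, the fourth receptor, was 2.31 ± 1.74 CPM in organoids and 0.0737 ± 0.0750 CPM in MEFs (adjusted p = 0.010).

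Within the organoids, the 9 genes above background varied to different degrees between cultures. The coefficient of variation over the 9 libraries labelled untreated was 17.3% for Notch1, 19.3% for Jag1, 19.8% for Hes1 and 24.7% for Notch2, near the median of 22% over 11825 genes. It was 29.3% for Lfng, 32.3% for Dll1, 40.8% for Jag2, 49.4% for Dll4 and 78.5% for Notch3. Over the 18 organoid libraries, which share 9 cultures and pool both treatment labels, so that r also holds any difference by label, log2 CPM of Dll4 rose with that of Dll1 (Pearson's r = 0.57) and of Hes1 (r = 0.54). Dll1 also went with the total count of the library (r = 0.52) and with the summed Paneth cell markers (r = 0.49), whose part in these values was not tested. The genes whose log2 CPM followed a member most closely were Rab5b for Notch1 (r = 0.82), Gnat2 for Notch2 (0.81), Tbc1d7 for Notch3 (0.79), Slc16a11 for Dll1 (0.80), G3bp1 for Dll4 (0.81), Ska3 for Jag1 (0.84), Irf8 for Jag2 (0.84), Smpd3 for Hes1 (0.83) and Rab40c for Lfng (0.81). The next in line were Degs2, Pcdh8, Slfn4, Jmjd4, E2f1, Arel1, Atad3a, Pold1 and Hpx, with r between 0.78 and 0.83. Each was picked as the highest among all genes above the filter and is given as a description.

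The libraries labelled TNF were compared with those labelled untreated to ask whether the treatment moved the pathway. In organoids, none of the 9 genes tested had an adjusted p under 0.05 in edgeR, where 1.39% of 12104 genes did, and none did in DESeq2. Notch1 and Jag2 had an unadjusted p under 0.05. Notch1 was lower in the library labelled TNF in 8 of 9 cultures, at 99.3 ± 15.2 CPM against 121 ± 20.9 CPM (SD, n = 9), with a log2 fold change of −0.28 (SE 0.103, adjusted p = 0.31 in edgeR). With the culture as a block, the call was gained, with a log2 fold change of −0.28 (SE 0.081, adjusted p = 0.047), in a fit that called 3.28% of all genes. The exception was culture Z910, with 124 CPM labelled TNF and 91.7 CPM labelled untreated. Jag2 was higher in the library labelled TNF in 9 of 9 cultures, at 22.4 ± 4.82 against 15.5 ± 6.35 CPM, with a log2 fold change of 0.52 (SE 0.209, adjusted p = 0.40 in edgeR) and of 0.60 (SE 0.176, adjusted p = 0.054) with the block. Of the 9 genes, Jag2 was the single one past the thresholds the study used (log2 fold changes of 0.5 or more in size with an unadjusted p up to 0.05), which 2.91% of all genes passed. The 2 groups of libraries overlapped for both genes.

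**Figure D4:**
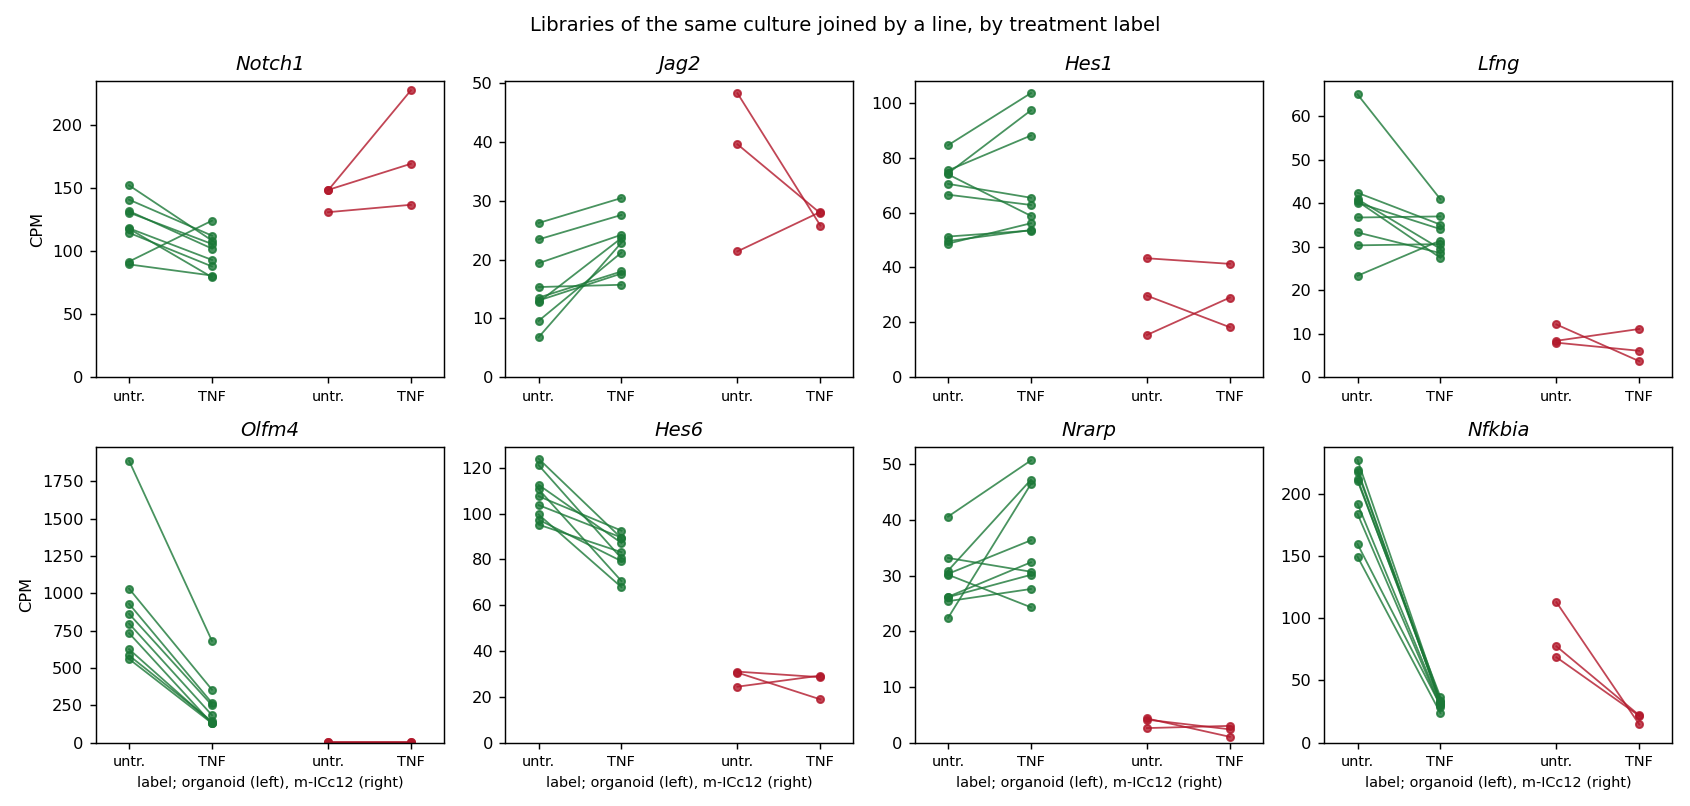
CPM (y axis) in libraries labelled untreated and labelled TNF, for organoids on the left and m-ICc12 cells on the right of each panel, where lines join the libraries of an organoid culture or the m-ICc12 libraries of the same number. Olfm4, Hes6 and Nfkbia are lower in the library labelled TNF in all 9 organoid cultures, Notch1 in 8 of 9, and Jag2 is higher in 9 of 9.

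The other 7 genes tested in organoids were not called and had an unadjusted p above 0.05, with log2 fold changes between −0.49 (Notch3, SE 0.861) and 0.15 (Jag1, SE 0.143). Hes1 was 71.0 ± 19.8 CPM labelled TNF and 66.1 ± 13.1 CPM labelled untreated (0.10, 95% interval −0.19 to 0.39), and Lfng was 32.7 ± 4.40 against 39.2 ± 11.5 CPM (−0.26, 95% interval −0.56 to 0.04). Dll1 had 24.5 ± 4.97 against 25.5 ± 8.24 CPM and Dll4 10.4 ± 2.54 against 11.1 ± 5.47 CPM. Of the 51 further pathway genes, 41 were tested and 2 were called, both lower in the libraries labelled TNF. Olfm4 was 252 ± 179 CPM labelled TNF and 890 ± 407 CPM labelled untreated, lower in 9 of 9 cultures (log2 fold change −1.82, SE 0.286, adjusted p = 0.00024). Hes6 was 82.2 ± 8.58 against 108 ± 10.1 CPM, with no overlap between the groups (−0.39, SE 0.079, adjusted p = 0.0045). Of the 4 stem cell markers, Olfm4 and Ascl2 were lower in the libraries labelled TNF (Ascl2 8.81 ± 3.81 against 28.5 ± 8.59 CPM, log2 fold change −1.70, SE 0.234, adjusted p = 3.5e-05), whereas Lgr5 was 160 ± 59.8 against 153 ± 48.9 CPM (0.06, SE 0.200, adjusted p = 0.98) and Smoc2 572 ± 83.5 against 531 ± 101 CPM (0.10, SE 0.101, adjusted p = 0.89).

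In m-ICc12 cells, none of 8 genes tested was called by treatment label in edgeR or DESeq2, and none had an unadjusted p under 0.05. The background was low, with 0.11% of 11861 genes called. Notch1 was 228, 137 and 169 CPM labelled TNF and 148, 131 and 149 CPM labelled untreated (log2 fold change 0.33, 95% interval −0.07 to 0.73). Jag2 was 25.8, 28.1 and 27.9 CPM labelled TNF and 48.3, 21.4 and 39.6 CPM labelled untreated (−0.40, 95% interval −0.98 to 0.17). Library M1 labelled TNF, with the lowest total count, had the highest value of Notch1, Notch2 (310 CPM) and Jag1 (242 CPM) of all libraries. Tested as an interaction, the difference by label between m-ICc12 cells and organoids was called for none of 9 genes in edgeR or DESeq2, where 0.159% of 13183 genes were called in edgeR, with an unadjusted p under 0.05 for Notch1 (0.60, SE 0.220, adjusted p = 0.56), Dll1 (−1.17, SE 0.507, adjusted p = 0.68) and Jag2 (−0.94, SE 0.424, adjusted p = 0.72). Of the 51 pathway genes none was called in m-ICc12 cells (34 tested) or in the interaction (45 tested) by either tool, with 0 and 3 at an unadjusted p under 0.05.

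The facilities were compared in the libraries labelled untreated, with the 3 GF cultures against the 6 SPF cultures. As each facility stood for a single litter, the microbiota of the donor, the facility and the litter cannot be told apart. None of the 9 genes tested was called in edgeR or DESeq2 and none had an unadjusted p under 0.05, where 0.0325% of 12315 genes were called in edgeR. Of the 51 pathway genes, none of 41 tested was called by either tool, and 1 had an unadjusted p under 0.05. Notch1 was 134 ± 17.3 CPM in GF cultures (n = 3) and 114 ± 20.7 CPM in SPF cultures (n = 6), with a log2 fold change of 0.23 (95% interval −0.10 to 0.55). Hes1 was 66.5 ± 13.2 CPM in GF and 65.9 ± 14.3 CPM in SPF cultures (0.02, 95% interval −0.39 to 0.43). Dll1 was within 27.1 to 27.8 CPM in the 3 GF cultures and between 11.4 and 34.9 CPM in the 6 SPF cultures. Lfng was 40.6 ± 21.8 CPM in SR, 39.4 ± 2.30 CPM in SE and 37.6 ± 6.43 CPM in GF cultures (n = 3 each). The widest interval was that of Notch3, from −4.66 to 1.38, so that a difference of several log2 units was not detectable at its counts.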

How the data were processed

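RNA-seq was done on 18 organoid, 6 m-ICc12 and 3 MEF libraries (single-end reads, poly-A selected, with a TruSeq kit that the labels, but not the methods of the study, call stranded). The authors trimmed the reads with Trimmomatic, aligned them to GRCm38 (Ensembl annotation) with STAR and deposited whole-number counts per gene. The submitters' notes give STAR 2.5.4b and featureCounts as the counter, which differs from the methods of the study, and the use of strand is not given in the sources used here. Each library had 22524 genes, of which 22291 had a symbol, and 0 pairs of libraries held the same values. Gene positions and exon lengths came from GENCODE, and promoters from RefSeq (GRCm38.p6).

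Genes with at least 10 counts in 50% or more of the libraries of a group entered edgeR's quasi-likelihood test (edgeR 4.0.16, limma 3.58.1, R 4.3.3), with Benjamini-Hochberg adjustment over all genes tested and a call at an adjusted p under 0.05. Where the text prints an adjusted p without a tool, it is from edgeR. Log2 CPM in the correlations used a prior count of 2, fold changes used the defaults of each tool, and intervals are at 95%. Comparisons between cells and between facilities used the libraries labelled untreated and the groups compared, without covariates. The culture as a block, DESeq2 1.42.0, a filter of at least 1 count, 1 fit of all 27 libraries, the libraries labelled TNF and leaving out each culture were alternatives. Both libraries of an organoid culture came from the same mouse, which pairs them. Their deviations from the group means correlated at 0.171 on average (0.082 to 0.31), against −0.02 between cultures. As deviations from a group mean cancel out within the group, the value between cultures follows largely from the other and is no separate baseline. The fits were tested on simulated counts in which 200 genes were changed by 1 on the log2 scale. All genes were simulated with the same dispersion and without culture effects, and the changed genes were drawn from those above a minimum mean count. Of these, edgeR recovered 87.5% between organoids and m-ICc12 cells, 87% between organoids and MEFs and 55.5% between m-ICc12 cells and MEFs. It recovered 81% between GF and SPF cultures and, by label, 100% in organoids, 58% in m-ICc12 cells and 30.5% in the interaction. These shares do not carry over to genes of wider spread or few counts. The coefficient of variation was 78.5% for Notch3, 49.4% for Dll4 and 40.8% for Jag2. False calls made up 4.4 to 10.3% of the calls in edgeR and 5.97 to 15% in DESeq2. Figures and sequence searches used Python 3.11.15.

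The 10 genes and the gene lists were chosen with earlier results of these data known. Of the other pathway genes, the text names in each comparison up to 5 called genes with the smallest p, every called gene of a list of at most 5 genes, and those said to be chosen after their values were seen. The most similar genes are the 2 with the highest Pearson's r of log2 CPM over the 18 organoid libraries. The sum of 1 marker list is not reported here.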

Additional observations from a re-analysis of the deposited data

Results flagged for a closer look

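Among 20 groups of 9 libraries, one per gene and treatment label, 4 had a lowest or highest library whose gap to its neighbour was large against the range of the group. For normally distributed values, chance gives about 1 such group in 20. That rate does not apply to Hey1, where nearly all libraries held 0 counts and any single library with counts gives a large gap. Jag1 was 16.4 CPM in the GF culture Z919 labelled untreated, the lowest of 9, with a gap of 0.495 of the range. Lfng was 65.1 CPM in the SR culture Z908 labelled untreated, the highest of 9, with a gap of 0.542 of the range. Hey1 was 2.15 CPM (57 counts) in the same library, where 7 of the other libraries labelled untreated held 0 counts and 1 held 1 count. Hey1 was 0.288 CPM (9 counts) in the SE culture Z912 labelled TNF, where the other 8 libraries held 0 counts. The causes were not tested.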

How the results depend on the processing

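The direction and the side of the threshold of each gene in each comparison were computed under the alternatives. For single genes, 792 values were unchanged, 20 lost and 3 gained a call, 28 turned in direction and 6 moved without a test. The 6 are shares of receptor or ligand transcripts with the longest coding transcript as the length. The 792 also include such shares, which have no direction or call. The number of the 10 genes called was 6 to 7 for organoids against m-ICc12 cells, 8 to 10 for organoids against MEFs and 8 to 9 for m-ICc12 cells against MEFs with single cultures left out, and 0 throughout for the other comparisons. By treatment label in organoids, 1 gene was called with the culture as a replicate block (Notch1) and 1 under the thresholds of the study (Jag2). The block changed no other call of the 10 genes, and the difference of Dll4 became 0.02 with it. The m-ICc12 samples share only a number (mean correlation 0.0311, range −0.00663 to 0.0926). Calls of Jag2 and Hey1 against MEFs, of Jag2 against m-ICc12 cells and of Notch3 and Lfng between m-ICc12 cells and MEFs were lost under some alternatives, as given above with their values. Hey1 against MEFs was also lost without Z912 (adjusted p = 0.052), R1 (0.096) or R3 (0.074), and Jag2 against MEFs with at least 1 count as the filter (0.061).

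In the comparison of GF with SPF cultures, the libraries labelled TNF turned Notch2 to 0.07, Notch3 to 0.61, Dll1 to −0.21, Dll4 to −0.14, Jag1 to 0.07, Hes1 to −0.03 and Lfng to 0.04, none of them called. Leaving out a culture turned further uncalled log2 fold changes. By label in organoids, Notch2 ran from −0.14 to 0.04, Dll1 from −0.21 to 0 and Dll4 from −0.29 to 0.05. By label in m-ICc12 cells, Notch3 ran from −0.21 to 1.34, Hes1 from −0.27 to 0.27 and Lfng from −1.02 to 0.08. In the interaction, Dll4 ran from −3.76 to 1.96, Jag1 from −0.06 to 0.3, Hes1 from −0.36 to 0.16 and Lfng from −0.73 to 0.33. Between GF and SPF cultures, Notch2 ran from −0.21 to 0.06, Dll4 from −0.03 to 0.82, Jag2 from −0.57 to 0.08, Hes1 from −0.07 to 0.17 and Lfng from −0.2 to 0.1.

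Over all genes, the calls by label in organoids went from 168 to 397 with the block and to 352 under the thresholds of the study. In m-ICc12 cells they went from 13 to 46 in DESeq2, 30 with at least 1 count, 28 in 1 fit of all libraries, 6 with the block and 93 without M2. For the interaction they went from 21 to 73 in DESeq2, 103 with the block, 11 without M2 and 40 without M3, and between GF and SPF cultures from 4 to 21 in DESeq2, 22 in 1 fit of all libraries and 2 without any 1 of Z917, Z918 and Z919. Counts of 0 to 85 for Notch3 and 0 to 57 for Hey1 in an organoid library labelled untreated limit what can be said of these 2 genes.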
